A study of Mus musculus with 6 samples.

Results

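Monocyte-to-macrophage intermediate cells were taken as brain CD11b+ cells that held RNA of a monocyte gene pair and of a macrophage gene pair together, and 2583 of the 22157 cells that passed the filters met this definition. A cell was a member if Ly6c2 and Plac8 together gave at least 3 unique molecular identifiers (UMIs, counted RNA molecules) and Ms4a7 and Gpnmb together gave at least 3. At most 1 UMI was allowed over the microglia genes P2ry12, Tmem119, Siglech and Gpr34, and at most 1 over Nkg7, Flt3 and Ccr7, genes of lymphocytes and dendritic cells. Members were set against cells that held only 1 of the pairs and none of the other. The monocyte end (2434 cells) had at least 3 UMIs of Ly6c2 and Plac8 and none of Ms4a7 and Gpnmb, and the macrophage end (427 cells) was the converse. Intermediate here describes RNA content, because no cell was followed over time.

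Classical monocytes leave the blood through the chemokine receptor CCR2 and enter inflamed tissue and tumors. There they lose transcripts such as Ly6c2 and Ccr2 and gain the complement, lysosomal and lipid-handling transcripts of macrophages. In gliomas, cells of this origin lie beside microglia, the resident macrophages of the brain. Ly6c2 encodes the Ly-6C surface glycoprotein of monocytes and Plac8 a small cysteine-rich protein of myeloid cells, while Ms4a7 encodes a membrane protein of macrophages and Gpnmb a glycoprotein of lipid-laden and phagocytic macrophages.

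The cells came from C57BL/6 mice aged 12 weeks, and the groups were female and male mice at day 14 after tumor implantation, female and male mice at day 21, and female and male mice without tumor. CD11b is an integrin subunit carried by myeloid cells. Each of 3 pools joined 1 hashed sample of every group, giving 18 hashed samples read as RNA and as antibody tags of the same cells. The sources do not tie a hashtag number to a group, so hashtags are named by number, no comparison of sex or tumor day was made, and a shared number was not taken to mean the same group. Perfused brains were the source, with the hemisphere holding the tumor taken from tumor mice and the whole brain from the others, so the tissue taken differed between these groups.

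The pools held 13925, 11010 and 11820 barcodes with median depths of 4451, 8129 and 4689 RNA UMIs. Requiring 80% of hashtag UMIs on 1 hashtag, together with the RNA filters, kept 78.3% of barcodes in pool 1 and 85.0% in pool 2, but in pool 3 it kept only 1896 of 11820. Pool 3 therefore stood apart, and results are given without it where it decides them. The pools shared 32 to 53 barcodes pairwise, at most 0.481% of the smaller pool.

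All members carried hashtags 3 to 6. None was found under hashtags 1 and 2 in any pool, where 112 to 1937 cells were kept, which allows a share of up to 0.155% in the sample with most cells and up to 2.68% in the one with fewest (3 cells of the total), while the exact 95% upper limits of the same samples are 0.190% and 3.24%. Under hashtags 3 to 6 the members made up 7.90%, 9.58%, 24.3% and 11.6% of cells in pool 1 and 21.5%, 18.3%, 14.3% and 16.5% in pool 2. In pool 3 they made up 1.18%, 16.2%, 11.05% and 21.9%, with 4, 56, 39 and 111 cells. No hashtag number was high in all pools. Because the definition sets these shares, they are a description.

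**Figure D1:**
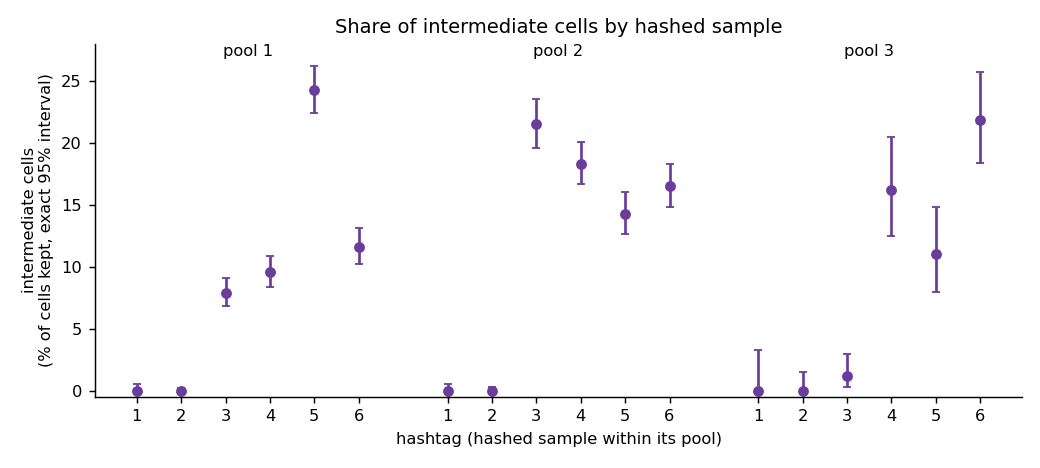
Share of intermediate cells among all kept cells (y axis, percent) for each of the 18 hashed samples (x axis, grouped by pool), with exact 95% binomial intervals that cover counting error only. Hashtags 1 and 2 hold no intermediate cell in any pool, and hashtags 3 to 6 hold between 1.18% and 24.3%.

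The pairs were not used evenly. Of the members, 96.1% held Ly6c2, 83.1% Plac8, 98.6% Ms4a7 and 47.6% Gpnmb, and 869 members (33.6%) held all 4 transcripts. Median counts per member were 11 UMIs of Ly6c2, 6 of Plac8, 7 of Ms4a7 and 0 of Gpnmb. The monocyte pair outnumbered the macrophage pair in 1668 members, was outnumbered in 831 and was equal in 84. Another 1008 cells had at least 3 UMIs of both pairs but more than 1 UMI of the microglia genes, and 20 more than 1 of the lymphocyte and dendritic cell genes. Just inside the limit, 273 members had exactly 3 UMIs of the macrophage pair and a median depth of 7720 UMIs, while just outside it 404 cells had 2 UMIs and a median depth of 7653.5. For the monocyte pair, 171 members had exactly 3 UMIs, at a median depth of 11864, and 235 cells just outside had 2, at 11357.

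Free RNA in droplets can place a transcript in a cell that does not express it. Among 10509 cells with at least 10 UMIs of the microglia genes, at a median depth of 5190 UMIs, 11.2% held 3 or more UMIs of the monocyte pair and 5.38% held 3 or more of the macrophage pair. Both limits were passed by 381 of these microglia-gated cells. Members had a median depth of 9426 UMIs, medians of 19 UMIs of the monocyte pair and 9 of the macrophage pair, and 1508 of them had at least 6 UMIs of each pair. The part of free RNA in membership of cells near the limits was not tested.

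Members were deeper than the monocyte end, but they did not carry the sum of both ends. In the 8 hashed samples with at least 10 cells in each of the 3 sets, the median depth was 9433 UMIs in intermediate cells, 6857 at the monocyte end and 10182 at the macrophage end. The sample medians of the members reached 0.574 ± 0.083 (SD, n = 8) of the sum of the end medians, with a range of 0.452 to 0.716. Between 2.83% and 17.1% of members per sample lay above that sum. The median Scrublet score, a simulated-doublet similarity, was 0.0423 in intermediate cells, 0.0403 at the monocyte end and 0.0337 at the macrophage end.

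Barcodes that carried 2 hashtags gave a direct look at joined cells. In pools 1, 2 and 3 there were 743, 511 and 174 of them, and 8.34%, 11.2% and 4.02% met the gene rule, beside 10.1%, 13.6% and 11.1% of single-hashtag cells. The 2-hashtag barcodes that met the rule had median depths of 12671, 24224 and 15302 UMIs, against 7085.5, 12126 and 9732.5 UMIs in members. From the hashtag frequencies, undetected doublets within 1 hashed sample were estimated at 164, 112 and 41.0 cells, which is 14.9%, 8.77% and 19.5% of the members of each pool if all of them met the rule. Which members they are is not known.

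**Figure D2:**
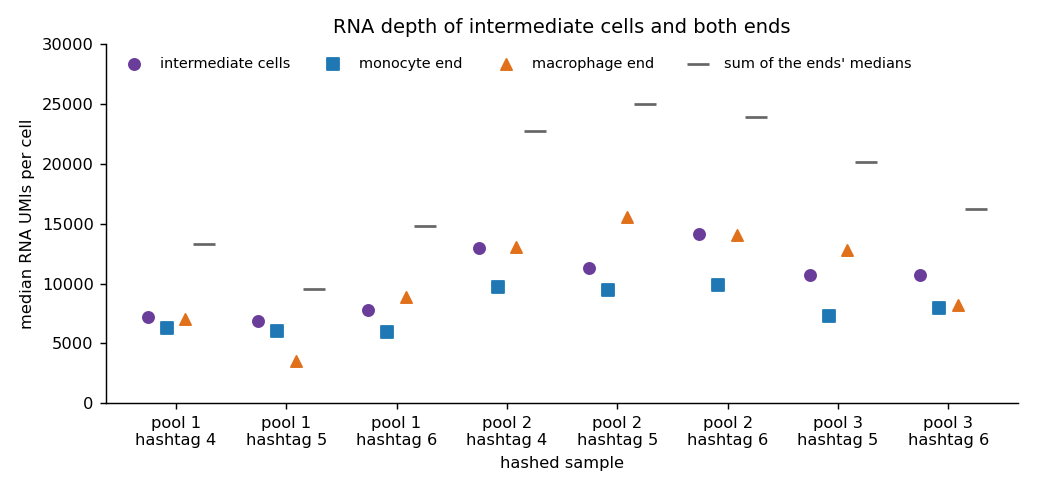
Median RNA UMIs per cell (y axis) in the 8 hashed samples that entered the tests (x axis) for intermediate cells, the monocyte end and the macrophage end, with the sum of the end medians as a bar. Intermediate cells lie below the sum in every sample, at 0.452 to 0.716 of it.

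The tests across genes compared sums of UMIs per hashed sample, so the hashed sample is the replicate, and 1999 intermediate, 1761 monocyte-end and 395 macrophage-end cells from 8 samples entered. Hashtag 3 of pools 1, 2 and 3 and hashtag 4 of pool 3 did not enter. They had 6, 9, 5 and 1 macrophage-end cells and held 171, 353, 4 and 56 members. Tests of surface proteins against the ends used the same 8 samples. Summed depth was 427985 to 5082763 UMIs for intermediate cells, 262622 to 2938506 for the monocyte end and 63296 to 1248501 for the macrophage end, which rested on as few as 12 cells in 1 sample. Levels are UMI counts scaled to a common library size with TMM factors (CPM), calls are edgeR quasi-likelihood tests at a Benjamini-Hochberg adjusted p under 0.05 over 7654 genes, and fold changes are log2. The rule genes were left out of the tests. No label ties a hashed sample to an animal, so p-values measure the spread between these samples, which may be technical.

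The rule genes in the members are a description. Ly6c2 averaged 1370 ± 748 CPM in intermediate cells and 2078 ± 822 CPM at the monocyte end, and Plac8 averaged 991 ± 542 CPM in intermediate cells and 4848 ± 1185 CPM at the monocyte end (SD, n = 8 each). Ms4a7 stood at 880 ± 230 CPM in intermediate cells and 1002 ± 279 CPM at the macrophage end, and Gpnmb at 396 ± 238 CPM in intermediate cells and 291 ± 135 CPM at the macrophage end. Plac8 was thus further below the monocyte end than Ly6c2 was.

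Against the monocyte end, the intermediate cells differed widely. Of the 7654 genes, 43.4% were called, 1592 of them higher (20.8%) and 1730 lower (22.6%). Against the macrophage end 6.25% were called, 343 higher (4.48%) and 135 lower (1.76%). The macrophage end held fewer cells, so these counts do not rank the distances to the ends. Without pool 1, 176 genes were called against the macrophage end, and without pool 2, 222, beside 478 with all pools. Without TMM scaling the split against the macrophage end was 56.8% higher calls, beside 71.8% with it.

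Genes of macrophage identity were mostly close to the macrophage end. Of 25 listed macrophage genes, 24 rose against the monocyte end, beside 20.8% of all genes, and none was called lower. Their median change was 1.63, beside 0.01 over all genes. Against the macrophage end 7 fell, beside 1.76% of all genes, none rose, and the median was -0.19. The cells were chosen for macrophage transcripts, so the direction of this list is not independent of the choice. Cd63, a tetraspanin of lysosomes, ranged from 451 to 970 CPM in intermediate cells, from 39.1 to 92.9 CPM at the monocyte end and from 356 to 1087 CPM at the macrophage end. All samples of intermediate cells lay above all monocyte-end samples, with a change of 3.06 ± 0.14 (SE), and the difference to the macrophage end did not pass the test (-0.33 ± 0.13, adjusted p = 0.14 by edgeR).

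Lipid and cathepsin transcripts had a like pattern. Fabp5, an intracellular fatty acid carrier, averaged 2329 CPM in intermediate cells, 298 CPM at the monocyte end and 1885 CPM at the macrophage end, and rose by 3.03 against the monocyte end. Apoe, an apolipoprotein of lipid-loaded macrophages, averaged 15726 CPM in intermediate cells, 3608 CPM at the monocyte end and 15176 CPM at the macrophage end. Ctsk, a cysteine protease of lysosomes, had the largest named rise, 5.71 ± 0.40, with 17.6 to 131 CPM in intermediate cells and 0 to 3.8 CPM at the monocyte end. Against the macrophage end, Fabp5 (0.34), Apoe (0.10) and Ctsk (0.37) did not pass. Arg1, the arginase of alternatively activated and tumor macrophages, was 1.94 higher than at the monocyte end and 0.05 from the macrophage end, which did not pass.

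Some macrophage transcripts were lower than at the macrophage end. C1qa, a chain of the first complement component, had a lowest, median and highest sample of 2184, 3701 and 4236 CPM in intermediate cells, 441, 786 and 1018 CPM at the monocyte end and 2670, 5169 and 7541 CPM at the macrophage end. The intermediate cells overlapped the macrophage end but were lower in 7 of 8 samples (-0.58), and lay above the monocyte end in 8 of 8 (2.09). Pf4, a platelet-type chemokine of resident macrophages, was 5.05 above the monocyte end and below the macrophage end (-2.15 ± 0.26), with 23.4 to 114 CPM in intermediate cells, 0 to 4.76 CPM at the monocyte end and 58.2 to 837 CPM at the macrophage end. Mrc1, the mannose receptor (-1.76), Mmp12, an elastase of macrophages (-1.63), Vcam1, an adhesion molecule (-1.60), and Cd81, a tetraspanin (-1.52), were lower than at the macrophage end in 8 of 8 samples. Ltc4s, the leukotriene C4 synthase, was also lower in 8 of 8 (-1.44).

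Ltc4s is also on the list of microglia markers, of which 10 were tested. Against the monocyte end 6 of them rose and 1 fell, beside 20.8% and 22.6% of all genes. Against the macrophage end 1 rose and 2 fell, beside 4.48% and 1.76% of all genes. Microglia markers summed to 555 to 1170 CPM in intermediate cells, 455 to 685 CPM at the monocyte end and 604 to 1207 CPM at the macrophage end. Border macrophage markers summed to 130 to 441 CPM in intermediate cells, 124 to 425 CPM at the monocyte end and 153 to 797 CPM at the macrophage end. Their part in the difference to the macrophage end was not tested.

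Monocyte genes were lower than at the monocyte end but not absent. Of 19 tested genes on the monocyte list, 14 fell against the monocyte end, beside 22.6% of all genes, with a median of -0.98. Against the macrophage end 9 rose, beside 4.48% of all genes, with a median of 0.93. No gene of the list was called in the opposite direction. Ccr2, the receptor by which monocytes leave bone marrow and enter tissue, had 110, 183 and 225 CPM in intermediate cells, 415, 489 and 809 CPM at the monocyte end and 0, 44.6 and 84.6 CPM at the macrophage end. These 3 ranges did not overlap, and the changes were -1.55 ± 0.13 and 1.47 ± 0.19.

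Chil3, a chitinase-like protein of monocytes, had the largest rise against the macrophage end (3.71 ± 0.42) among genes of at least 20 CPM that were higher in every hashed sample. It ranged from 32.6 to 715 CPM in intermediate cells, from 81.4 to 988 CPM at the monocyte end and from 0 to 9.86 CPM at the macrophage end. Hp, haptoglobin (2.69), S100a4, a calcium-binding protein (2.35), Slfn4, an interferon-inducible Schlafen gene (2.30), and Slpi, a protease inhibitor (2.2), were higher than at the macrophage end in 8 of 8 samples. S100a4 was at the same time far below the monocyte end (-3.65). Slpi was 0.34 below the monocyte end and did not pass there (adjusted p = 0.10 by edgeR).

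The monocyte end itself was mixed. Its largest excesses over the intermediate cells were Cd209a, a C-type lectin of dendritic cells (-6.56), Klrd1, a receptor of NK cells (-5.08), Pglyrp1, a peptidoglycan-binding protein of granulocytes (-4.70), Ace, a marker of patrolling monocytes (-4.64), P2ry10, a receptor gene of lymphoid and myeloid cells (-4.46), and Kmo, an enzyme of tryptophan breakdown (-4.44). Summed neutrophil markers were 79.1, 126 and 154 CPM in intermediate cells, 74.8, 2107 and 9594 CPM at the monocyte end and 26.6, 72.3 and 204 CPM at the macrophage end, with Ly6g and Mmp9 at 0 in members. NK cell markers reached 21.6 CPM at most in intermediate cells and 179 CPM at the monocyte end, with Ncr1 at 0 in members. Of the 9 listed NK cell markers 1 was tested, Klrd1, so this sum does not stand apart from that gene. Klrd1 averaged 78.8 CPM at the monocyte end, beside a median list sum of 84.4 CPM. Nkg7, which the rule limits, averaged 1.30 CPM there and 1.24 CPM in intermediate cells. T cell markers reached 3.35 CPM in intermediate cells and 22.2 CPM at the monocyte end, and B cell markers 27.5 CPM in intermediate cells and 137 CPM at the monocyte end.

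Patrolling monocyte markers summed to 53.6 to 139 CPM in intermediate cells and 142 to 399 CPM at the monocyte end. Dendritic cell markers were 67.7 to 125 CPM in intermediate cells, 185 to 259 CPM at the monocyte end and 90.5 to 153 CPM at the macrophage end. Among listed genes of these types, all 5 tested patrolling markers, all 3 tested dendritic markers and 3 of 4 tested neutrophil markers were called lower than at the monocyte end. Over all genes this share was 22.6%. The part of such cells in the falls against the monocyte end was not tested. With every cell that held a UMI of a T, NK or B cell marker left out, 1311 genes rose and 1517 fell against the monocyte end.

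Interferon-induced transcripts were lower than at the monocyte end and mostly higher than at the macrophage end. All 21 tested genes of the interferon list fell against the monocyte end (median -0.88, beside 22.6% of all genes called lower), and 16 rose against the macrophage end (median 0.77, beside 4.48% called higher). Isg15, a ubiquitin-like modifier, had 552, 1100 and 2351 CPM in intermediate cells, 1410, 1749 and 4189 CPM at the monocyte end and 213, 376 and 706 CPM at the macrophage end. Its ranges overlapped between neighbouring sets, and the changes were -0.95 and 1.55. Ifitm3, a membrane protein that limits viral entry, averaged 4204 CPM in intermediate cells, 7943 CPM at the monocyte end and 2011 CPM at the macrophage end. Ifit3 (-1.11 and 1.45), Rsad2 (-0.85 and 1.32), Ifi205 (-1.74 and 1.14) and Irf7 (-0.62 and 1.07), which encode antiviral effectors and the interferon-amplifying factor IRF7, moved the same way.

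Transcription factors of the monocyte-to-macrophage transition were mostly lower than at the monocyte end. Of 28 tested factors, 19 fell, beside 22.6% of all genes, and 6 rose, which is near the 20.8% of all genes that rose (median -0.43). Of the same factors 10 rose against the macrophage end, beside 4.48% of all genes, and none fell. Among those that rose were Maf (0.97), a factor of macrophage identity, Cebpa (1.08), a myeloid lineage factor, Nr1h3 (1.55), the liver X receptor that drives cholesterol export genes, Mitf (0.39), a lysosomal gene regulator, and Egr2 (0.62). Maf, Cebpa, Nr1h3 and Mitf did not pass against the macrophage end, with changes of -0.01, 0.09, 0.15 and -0.13. Hif1a, the oxygen-sensing factor (-0.78 and 0.46), Cebpb, a factor of emergency myelopoiesis (-0.44 and 0.61), and Rel (-0.74 and 0.39) were called between the ends.

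Of 12 class I and immunoproteasome genes of antigen presentation, 3 rose and 7 fell against the monocyte end, beside 20.8% and 22.6% of all genes, and 8 rose against the macrophage end, beside 4.48% (median 0.33). H2-K1, a classical class I heavy chain, and B2m, its light chain, were each 0.28 above the monocyte end. Of 9 class II genes, 5 fell against the monocyte end, among them Ciita, the class II transactivator (-0.80), and H2-DMb2, a peptide-exchange chain (-2.01). The abundant class II chains did not pass against either end, with changes of -0.05 and 0.19 for H2-Aa and 0.11 and 0.04 for H2-Ab1.

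Chemokines rose in part. Of 15 tested, 10 rose against the monocyte end, beside 20.8% of all genes, and 4 fell, near the 22.6% of all genes that fell (median 0.74). Ccl7, a monocyte attractant, rose by 3.07, with 248 to 439 CPM in intermediate cells and 11.4 to 92.4 CPM at the monocyte end, and Ccl12 rose by 2.03. Ccl8 rose by 4.36 and was at the same time below the macrophage end (-1.91), where Ccl24 (-1.41) and Pf4 were lower too. Ccl5, an attractant of T cells and monocytes, averaged 3106 CPM in intermediate cells, 3806 CPM at the monocyte end and 1289 CPM at the macrophage end, and it was the 1 chemokine called higher than at the macrophage end (1.4). Cxcl10, an interferon-induced attractant of T cells, was below the monocyte end (-1.55) and 0.01 from the macrophage end.

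Iron and stress genes followed the macrophage end. Of 12 tested genes of heme, iron and oxidative stress, 10 rose and 1 fell against the monocyte end, beside 20.8% and 22.6% of all genes (median 0.74), and 1 was called against the macrophage end, Mt1, a metallothionein (-0.77). Hmox1, the heme-degrading oxygenase, rose by 0.72, and Fth1, the ferritin heavy chain, by 0.76. Of 18 tested glycolysis and hypoxia genes, 3 rose against the monocyte end, a smaller share than the 20.8% of all genes, and 7 fell, beside 22.6%. Relative to the macrophage end 6 rose, beside 4.48% of all genes. Slc2a1, a glucose transporter (0.58), Slc16a3, a lactate exporter (0.82), Pgk1 (0.52), Eno1 (0.40) and Pfkl (0.53), glycolytic enzymes, and Egln3, an oxygen sensor (1.20), were the genes higher than at the macrophage end.

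Over the 872 genes that differed at least 1 log2 unit between the ends, the intermediate cells stood at a median of 0.73 of the way from the monocyte end to the macrophage end on mean CPM (quartiles 0.58 and 0.88). In single samples the median was 0.567 to 0.840. Of these genes, 752 (86.2%) lay between the ends, 116 beyond the macrophage end and 4 beyond the monocyte end. The median position was 0.83 for 12 monocyte genes, 0.74 for 19 macrophage genes, 0.70 for 10 transcription factors, 0.67 for 18 interferon genes, 0.67 for 12 chemokines and 0.57 for 6 glycolysis genes. No test was made of differences between lists.

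Some genes exceeded both ends. In total 32 genes (0.418%) were called higher than at both ends and 20 genes (0.261%) lower than at both, and 96 and 81 passed at an unadjusted p under 0.05. DESeq2 called 29 and 18, of which 24 and 12 were shared. The counts leaned on single samples. Without pool 1 they were 9 above and 6 below, and without pool 2 they were 5 and 4, while without pool 3 they were 27 and 21. Leaving out hashtag 4, 5 or 6 of pool 1 gave 20, 16 or 21 above and 10, 11 or 13 below, and leaving out hashtag 5 of pool 2 gave 15 and 13. Without hashtag 6 of pool 2, 9 genes were below both ends. Cells of 5000 to 15000 UMIs, in 5 samples, gave 7 above and 5 below, of which 4 and 3 were among the 32 and 20. Cells thinned to 4000 UMIs gave 69 and 53, of which 19 and 12 were among them. Cells with no T, NK or B cell marker UMI gave 17 and 10, of which 15 and 6 were among them. With cells of a doublet score of 0.2 or more left out the counts were 34 and 23, holding all 32 and all 20. That limit kept 2568 of 2583 members, and 2-hashtag barcodes had median scores of only 0.089, 0.072 and 0.072 in pools 1, 2 and 3. It therefore removed few cells and cannot show how far doublets affect these calls. The direction was steadier, with 31 of 32 and 18 of 20 genes on the same side of both ends without each pool in turn. The exceptions, Ldlrad3 above and Tmem238 and Lifr below, did not pass the filter on low counts in 1 or more of these runs, and no gene that passed it turned.

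Inhba, the activin A subunit, led the genes above both ends. It had 63.9, 136 and 239 CPM in intermediate cells, 31.8, 81.8 and 114 CPM at the monocyte end and 25.8, 44.8 and 145 CPM at the macrophage end. The ranges overlapped across samples, but within samples the intermediate cells were higher than the monocyte end in 7 of 8 and than the macrophage end in 8 of 8. The changes were 0.85 ± 0.15 (adjusted p = 2.8e-05 by edgeR) and 1.30 ± 0.20 (adjusted p = 4.9e-05 by edgeR). Inhba was called above both ends under all 17 settings other than leaving out a pool, and without each pool in turn.

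Slamf7, a self-ligand receptor of activated leukocytes, had 159, 269 and 470 CPM in intermediate cells, 141, 205 and 361 CPM at the monocyte end and 110, 181 and 266 CPM at the macrophage end. It was higher than both ends in 8 of 8 samples, by 0.31 ± 0.07 and 0.57 ± 0.09, and was called without each pool in turn. Of the genes above both ends, no others than Inhba and Slamf7 kept the call through each of these runs. Ier3, an early response gene that acts in cell survival, had 1424, 2127 and 3090 CPM in intermediate cells, 585, 1053 and 1792 CPM at the monocyte end and 1031, 1493 and 2100 CPM at the macrophage end, with changes of 0.97 ± 0.14 and 0.51 ± 0.14. Fam20c, a kinase of secreted proteins, had 35.5 to 95.6 CPM in intermediate cells and was 1.71 above the monocyte end, without overlap, and 0.76 above the macrophage end.

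The other named genes above both ends were of several kinds. Among receptors were Il3ra, the IL-3 receptor chain (0.54 and 0.67), Cd200r4, a CD200 receptor family member (0.96 and 0.53), Gpr84, a receptor of medium-chain fatty acids (0.58 and 0.46), and P2rx4, an ATP-gated channel (0.38 and 0.33). Cstb, an inhibitor of cathepsins (0.74 and 0.46), Rab20, a GTPase of phagosomes (0.44 and 0.39), Slc31a2, a copper transporter (0.70 and 0.39), and Slc25a37, the iron importer of mitochondria (0.38 and 0.50), also rose against both. So did the zinc finger factor Egr2 (0.62 and 0.42), the selenoprotein Selenom (0.52 and 0.60), the membrane protein Ninj1 (0.45 and 0.35), the class I gene H2-Q6 (0.32 and 0.40) and the linker histone H1f0 (0.31 and 0.43). Reads of H2-Q6 can come from its near copies in the class I region, so its count is uncertain. B3gnt2, a glycosyltransferase (0.37 and 0.78), Tctex1d2, a dynein light chain (0.36 and 0.61), and AI413582 (0.48 and 0.32) complete the named set. Outside the naming rule and chosen after their values were seen, Ctss, cathepsin S (0.73 and 0.31), and Cyba, a subunit of the phagocyte oxidase (0.43 and 0.28), were abundant genes above both ends, at 8866 and 3368 CPM in intermediate cells.

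**Figure D3:**
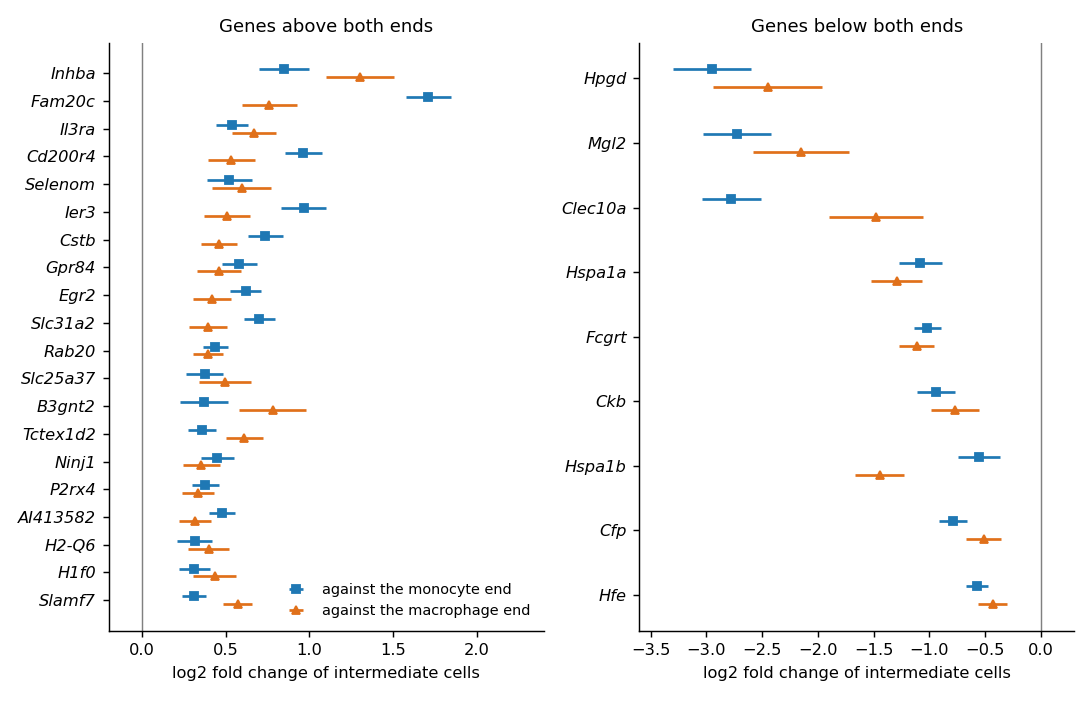
Log2 fold change of intermediate cells (x axis, with SE bars) against the monocyte end and against the macrophage end for the named genes called above both ends (left, 20 genes) and below both ends (right, 9 genes). The genes on the left lie above 0 and those on the right below 0 in both comparisons, with Inhba at 0.85 and 1.30.

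The genes below both ends included markers of other myeloid cells. Clec10a, a lectin of dendritic cells and macrophages, had 3.46, 8.25 and 11.1 CPM in intermediate cells, 18.4, 53.7 and 96.1 CPM at the monocyte end and 0, 15.2 and 66.4 CPM at the macrophage end, with changes of -2.77 and -1.48. All intermediate samples lay below all monocyte-end samples, but not below all macrophage-end samples. Mgl2, its close relative (-2.73 and -2.15), and Hpgd, a prostaglandin-inactivating enzyme (-2.95 and -2.45), had their highest macrophage-end values in hashtag 5 of pool 1, which rested on 14 cells, at 345 and 133 CPM. Mgl2 had medians of 4.22 CPM in intermediate cells and 15.4 CPM at the macrophage end, and Hpgd had medians of 2.67 CPM in intermediate cells and 11.2 CPM at the macrophage end. Mgl2 and Clec10a share sequence and their reads may be split between them. Dendritic cell markers were higher at both ends by median, at 98.2 CPM in intermediate cells, 208 CPM at the monocyte end and 114 CPM at the macrophage end, and their part in these genes was not tested.

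Fcgrt, the neonatal Fc receptor, was lower than both ends in 8 of 8 samples, at 13.4 to 23.1 CPM in intermediate cells, 33.5 to 51.6 CPM at the monocyte end and 19.4 to 120 CPM at the macrophage end (-1.02 ± 0.12 and -1.12 ± 0.16). Fcgrt and Mgl2 kept the call without each pool in turn. The chaperones Hspa1a (-1.08 and -1.29) and Hspa1b (-0.55 and -1.45), near-identical copies whose reads can be split, were lower too. Both are genes that cell dissociation induces. Of 15 genes of that list 2 rose and 7 fell against the monocyte end, beside 20.8% and 22.6% of all genes. Against the macrophage end 4 rose and 2 fell, beside 4.48% and 1.76% of all genes. Ckb, the creatine kinase of brain type (-0.94 and -0.77), Cfp, properdin (-0.79 and -0.51), and Hfe, an iron-sensing class I-like protein (-0.58 and -0.43), were lower than both ends as well.

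Among 18 tested inflammatory mediators, Inhba and Slamf7 were the members called above both ends. Against the monocyte end 4 rose and 6 fell, beside 20.8% and 22.6% of all genes, so the rises were near the share over all genes. Relative to the macrophage end 8 rose, beside 4.48% of all genes, and none fell (median 0.51). Il1b, the inflammatory cytokine, averaged 4749 CPM in intermediate cells, 6009 CPM at the monocyte end and 3339 CPM at the macrophage end (-0.42 and 0.50, both called). Il1a, its relative, rose by 1.07 against the monocyte end and was 0.11 from the macrophage end, which did not pass. Il6 was low throughout, with means of 2.76 CPM in intermediate cells, 12.98 CPM at the monocyte end and 1.72 CPM at the macrophage end, and fell by 1.94 against the monocyte end. Saa3, an acute phase protein (1.83), Clec4e, a receptor of damaged cells and mycobacteria (1.03), and Il18 (0.73) were higher than at the macrophage end.

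The counts of the remaining lists stand beside 20.8% of all genes higher and 22.6% lower than at the monocyte end. Of 15 tested lipid and lysosome genes, 9 rose and 1 fell against the monocyte end. Of 13 complement and Fc receptor genes, 6 rose and 3 fell against the monocyte end, the falls near the share over all genes. Among the rises were C3ar1 (1.84) and C5ar1 (1.04), receptors of complement fragments. Of 11 checkpoint and costimulation genes, 1 rose and 7 fell against the monocyte end, with Cd80 (-0.81), Cd86 (-0.51) and Cd40 (-0.74) among the falls. Cell cycle genes passed the filter in 8 of 20 cases, so that 12 were not tested, and 2 of the 8 rose against the monocyte end, near the share over all genes.

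The balance of the pairs ordered the members. In 4 bins by the monocyte pair's share of the 4 rule transcripts, C1qa had 768 CPM at the monocyte end, 2155 in members with 75% or more, 3263 in those with 50 to 75%, 3753 in those with 25 to 50%, 4812 in those under 25% and 5238 at the macrophage end (means of 7 or 8 samples without TMM scaling). Ccr2 took the opposite course, with 498 at the monocyte end, 344, 164, 106 and 40.8 over the bins and 48.2 at the macrophage end. Inhba was highest in the second bin, with 72.2 at the monocyte end, 140, 182, 123 and 65.4 over the bins and 55.6 at the macrophage end. Its sample ranges overlapped between all bins. The bins share the cells that the rule chose, and their median depth was 7864 UMIs in the first and 14119.5 UMIs in the last, so these values carry no test.

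**Figure D4:**
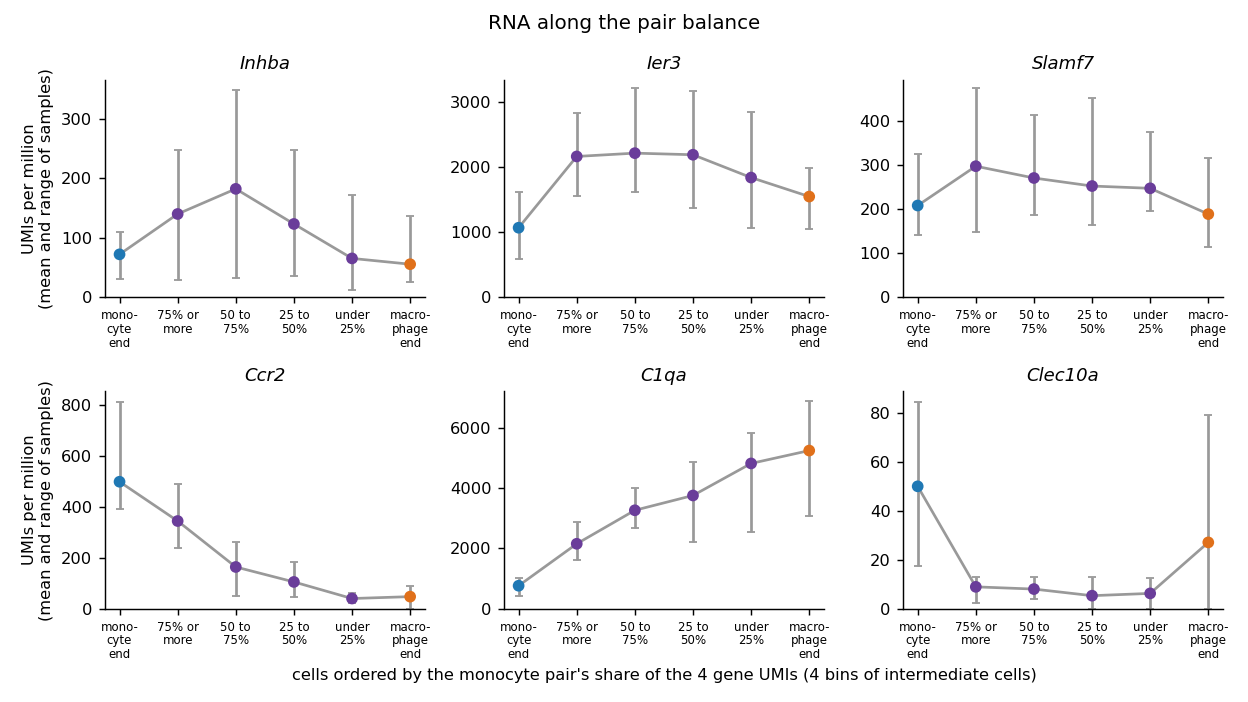
CPM without TMM scaling (y axis, mean with lowest and highest sample) of 6 genes at the monocyte end, in 4 bins of intermediate cells by the monocyte pair's share of the 4 rule transcripts, and at the macrophage end (x axis, from high to low share). C1qa climbs and Ccr2 drops across the bins, Inhba peaks at 182 in the 50 to 75% bin, and Clec10a is lower in all 4 bins than at both ends.

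Surface proteins were read from a separate library that the rule did not use. A level is a centred log ratio (the natural log of 1 plus the tag's UMIs, less the average of the same over all 10 shared protein tags), which sets a tag against the other tags of a cell, and tests are exact two-sided sign permutation tests over 8 hashed samples, whose smallest p is 0.0078. Over 20 tests, 10 proteins against each end, 13 passed after Benjamini-Hochberg adjustment. On this scale PD-L1, Ly-6C, MHC class II and CD52 lay between the ends and differed from both.

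PD-L1, the checkpoint ligand encoded by Cd274, had levels of 0.13, 0.42 and 0.77 in intermediate cells, -0.58, -0.11 and 0.15 at the monocyte end and 0.41, 0.57 and 0.96 at the macrophage end. It was 0.62 ± 0.13 (SD, n = 8) above the monocyte end in 8 of 8 samples and 0.21 ± 0.08 below the macrophage end in 8 of 8 (difference -0.21; adjusted p = 0.013 for each, exact sign permutation test). Its RNA did not follow: Cd274 averaged 179 CPM in intermediate cells, 200 CPM at the monocyte end and 148 CPM at the macrophage end and passed against neither (-0.11 and 0.32, adjusted p = 0.29 and 0.053 by edgeR). MHC class II protein was 0.48 ± 0.21 above the monocyte end in 8 of 8 samples and lower than the macrophage end in 8 of 8 (-0.28 ± 0.28), with the largest gap, -0.88, in hashtag 5 of pool 2.

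Ly6c2, which encodes Ly-6C, is a rule gene, so the direction of Ly-6C protein is not independent of the choice of cells. Ly-6C protein was 0.24 below the monocyte end (-0.24 ± 0.15) in 8 of 8 samples and 0.79 ± 0.22 above the macrophage end in 8 of 8. CD52, a small leukocyte glycoprotein, was -0.50 ± 0.12 from the monocyte end and 0.25 ± 0.21 from the macrophage end, each in 8 of 8 samples, and its RNA, Cd52, took the same order, with 2848 CPM in intermediate cells, 4271 CPM at the monocyte end and 2128 CPM at the macrophage end. Raw counts of the CD52 tag were low, with medians of 30 in intermediate cells, 50 at the monocyte end and 14 at the macrophage end. CD11b was 0.21 ± 0.12 above the monocyte end in 8 of 8 samples. CD49d, the integrin alpha 4 chain of infiltrating leukocytes (-0.14), CD74, the invariant chain (-0.16), and the Gr-1 tag, which reads Ly-6G and partly Ly-6C (-0.22), were lower than at the monocyte end. Gr-1 was lower in 6 of 8 samples at an adjusted p of 0.048 (exact sign permutation test).

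Tmem119 protein, a microglial antigen, was 0.44 below the macrophage end in 8 of 8 samples (-0.44 ± 0.20) and -0.01 from the monocyte end, which did not pass. Its raw counts were low, with medians of 18 in intermediate cells, 16 at the monocyte end and 19 at the macrophage end. CD45 passed against neither end. The CCR2 tag, present in pools 2 and 3, was 0.15 ± 0.12 above the monocyte end in 4 of 5 samples and -0.22 ± 0.16 from the macrophage end, lower in 4 of 5. Each had an exact permutation p of 0.125, where 5 samples allow no less than 0.0625. The signs of the tag were opposite to those of Ccr2 RNA against the same ends.

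Several proteins depended on the scale. Tag depth differed, with medians of 12519 tag UMIs in intermediate cells, 11027 at the monocyte end and 7560 at the macrophage end. On log2 raw tag counts PD-L1 was above both ends, by 0.35 against the macrophage end, and Ly-6C was 0.15 above the monocyte end, not passing. MHC class II was then 0.25 above the macrophage end, also not passing. On this scale CD49d (0.29) and CD74 (0.26) turned and passed as higher than at the monocyte end in 8 of 8 samples (adjusted p = 0.012 each, exact sign permutation test), so the call that they were lower was not kept on that scale. CD45 (0.44) and Tmem119 (0.49) also passed as higher than at the monocyte end. CD11b (0.62), CD45 (0.50), CD74 (0.51), CD49d (0.52) and PD-L1 (0.35) passed as higher than at the macrophage end on raw counts. On log2 tags per 1000 tags of a cell, PD-L1 and MHC class II passed against both ends. There Ly-6C was -0.080 from the monocyte end and CD52 0.095 from the macrophage end. Neither passed (adjusted p = 0.17 and 0.21, exact sign permutation test). With pool 1 or pool 2 left out, 5 samples remained and no protein could pass, so 0 of 20 did. Against the monocyte end, PD-L1, MHC class II, CD11b and CD52 held their direction on each scale and without each pool.

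**Figure D5:**
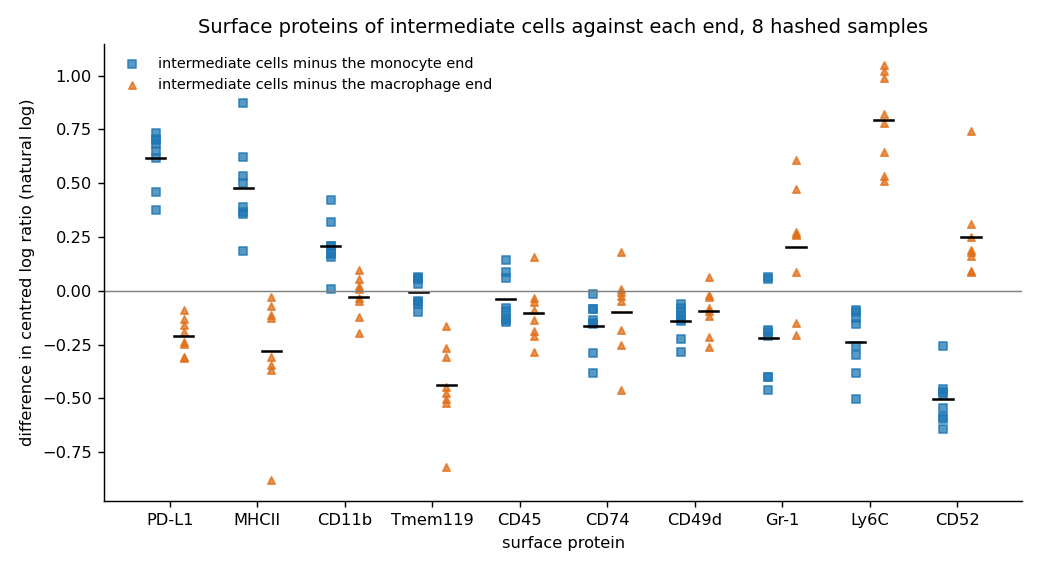
Difference in centred log ratio (y axis, natural log) of each surface protein (x axis) between intermediate cells and the monocyte end, and between intermediate cells and the macrophage end, for 8 hashed samples (points) with their mean (bar). PD-L1 and MHC class II lie above 0 against the monocyte end and below 0 against the macrophage end in all samples, and Ly-6C and CD52 the other way round.

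Within the members, proteins varied with the RNA balance. Members with more monocyte-pair UMIs were compared with members with fewer in 11 hashed samples, and 9 of 10 proteins passed the exact sign permutation test after adjustment. The split uses UMIs of Ly6c2, so the values of Ly-6C, and of Gr-1 as far as that tag reads Ly-6C, are a description and no independent result. Ly-6C was 0.54 ± 0.15 higher in members with more monocyte-pair RNA and CD52 0.39 ± 0.13 higher, each in 11 of 11 samples, and Gr-1 was 0.42 ± 0.27 higher in 10 of 11. PD-L1 was lower in 11 of 11 (-0.32 ± 0.09) and MHC class II in 10 of 11 (-0.34 ± 0.29). CD11b (-0.19), CD45 (-0.16), CD49d (-0.10) and Tmem119 (-0.19) were lower as well, and CD74 (-0.05) did not pass. Without pool 1 the MHC class II difference was -0.25 and without pool 2 it was -0.30, and neither passed (adjusted p = 0.10 and 0.069, exact sign permutation test). Members with more monocyte-pair RNA carried medians of 8664.5 RNA UMIs and 15314.5 tag UMIs, against 11991 RNA UMIs and 10140 tag UMIs in members with fewer. Among cells of 5000 to 15000 RNA UMIs, in 10 samples, Ly-6C differed by 0.58, PD-L1 by -0.34 and MHC class II by -0.47. On log2 raw tag counts, Ly-6C, Gr-1, CD52 and PD-L1 kept direction and call. CD11b (-0.016), Tmem119 (-0.014), CD45 (0.036), CD49d (0.12) and MHC class II (-0.23) did not pass on that scale. CD74 then passed as higher in members with more monocyte-pair RNA (0.19, adjusted p = 0.037, exact sign permutation test).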

How the data were processed

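RNA and antibody tags were measured together in brain CD11b+ cells of 3 pools. Per the labels' protocols, libraries were made with 10x Genomics 3' v3 chemistry with feature barcoding, and Seurat 3, bcl2fastq 2.20.0.422, the mm10 build and both Cell Ranger 4.0.0 and Cell Ranger 3.0.1 appear in the submitters' processing notes, with no step given for each. The authors deposited filtered matrices of raw UMI counts per gene or tag and barcode, and nothing was normalised before the steps described here. No per-sample column was left unused.

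Kept cells had at least 500 RNA UMIs, under 10% mitochondrial UMIs and 80% of hashtag UMIs on the top hashtag. Counts were summed per hashed sample and cell set where every set reached 10 cells. The test was quasi-likelihood in edgeR 4.0.16 (filterByExpr, TMM scaling, hashed sample as block, Benjamini-Hochberg over all genes but the 11 rule genes). Cells of the 3 sets in a test come from the same hashed sample, which is why it is a block. Standard errors are the fold change over the square root of F. DESeq2 1.42.0 was an alternative, Scrublet was run through scanpy 1.11.5, and R 4.3.3, Python 3.11.15, NumPy 2.4.6, SciPy 1.17.1 and pandas 2.3.3 were used. Scripts were tested on simulated data. Doublets were scored and not removed.

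The members and gene lists were chosen with earlier results of these data known. Named genes, leaving out rule, mitochondrial, ribosomal, sex-linked and predicted genes, were up to 20 above and 10 below both ends by the smaller fold change at 20 CPM or more, and the 6 largest rises and falls against each end with the same sign in every hashed sample. List members were examples, up to 6 a list. Alternatives covered the UMI limits, hashtag share, depth, thinning, splitting of UMIs, doublet score, other cell types, dividing cells, scaling, filter, block and pool. Sex and tumor day were not compared. Some genes that the rule names are not reported here. Intervals and floors cover counting error only.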

Additional observations from a re-analysis of the deposited data

Results flagged for a closer look

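Of 40 groups of 8 intermediate-cell values examined, 4 held a sample whose gap to the nearest other was over 0.526 of the whole range, and chance alone flags about 1 in 20 such groups. Cfp reached 128 CPM in hashtag 5 of pool 3, beside a median of 84.3 CPM. Hspa1a reached 86.8 CPM and Hspa1b 37.6 CPM, both in hashtag 5 of pool 2, beside medians of 34.5 and 15.9 CPM. Slc31a2 reached 206 CPM in hashtag 5 of pool 1, beside a median of 119 CPM.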

How the results depend on the processing

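Counts of called genes moved with cell numbers and depth more than directions did, and the cause was not tested. Against the monocyte end 3322 genes were called, with 2016 after thinning to 4000 UMIs, 713 with dividing cells left out (2 samples) and 2274 to 3360 leaving out a pool or hashed sample. Against the macrophage end 478 were called, with 720 at 2 UMIs of each pair, 273 in cells of 5000 to 15000 UMIs, 796 after thinning, 204 without dividing cells, 879 with ends allowed 1 UMI of the other pair, 787 with no filter on low counts and 176 to 501 leaving out a pool or sample. Above both ends there were 32 genes, with 17 at 5 UMIs of each pair, 7 in the depth window, 69 after thinning, 17 without T, NK or B cell marker UMIs, 6 without dividing cells, 58 with the wider ends, 76 with no filter and 5 to 37 leaving out a pool or sample. Below both there were 20, with 9, 5, 53, 10, 13 and 37 in the first 6 of these settings, 12 with mitosis-gene cells left out and 4 to 24 leaving out a pool or sample. Of the genes above and below both ends, 28 of 32 and 17 of 20 kept their direction in all 17 alternatives that did not drop a pool or sample. Mitosis-gene cells were those with 2 or more UMIs of 6 mitosis genes. With them left out (8 samples), 3235 genes were called against the monocyte end, 424 against the macrophage end and 26 above both. Leaving out a single hashed sample, the wider ends and the mitosis genes were chosen after seeing the data.

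The replicate block was the hashed sample, since the 3 cell sets come from the same sample. With no replicate block 2103 genes were called against the monocyte end, 104 against the macrophage end, 3 above and 4 below both ends, and 6 of 20 protein tests passed, beside 13.

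The share of intermediate cells (11.7%) was 8.10% at 5 UMIs and 14.6% at 2 UMIs of each pair, 18.8% at a 95% hashtag share, 16.7% in the depth window, 9.39% after thinning and 8.35% with the rule applied to a random part of each cell's UMIs. The median position (0.73) was 0.64 after thinning and 0.69 to 0.76 leaving out a pool. It was 0.46 without dividing cells, set as those with 3 or more UMIs of the 20 listed cell cycle genes. That setting kept 460 of 2583 members, and 2 samples entered. With mitosis-gene cells left out, 2410 members were kept, 8 samples entered and the position was 0.73. No protein test passed (0 of 20) with 20 or more cells in each set, in the depth window or without pool 1 or pool 2, where 5 samples allow no p under 0.0625, and the range leaving out a pool was 0 to 13. By RNA balance 9 proteins passed, 5 on log2 raw tags and 8 to 9 leaving out a pool.

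Leaving out dividing cells kept 135 intermediate and 44 macrophage-end cells in 2 samples. In these cells, Il3ra was -0.15 and -0.33 from the monocyte and macrophage ends, Selenom -0.54 and Clec10a 4.93 from the macrophage end. On log2 raw tags the signs turned against the monocyte end for CD45 (0.44), Ly6C (0.15), Gr-1 (0.18), CD49d (0.29), CD74 (0.26) and Tmem119 (0.49), of which Ly6C and Gr-1 did not pass and the others did. Against the macrophage end they turned for CD11b (0.62), CD45 (0.50), PD-L1 (0.35), CD49d (0.52), MHCII (0.25), CD74 (0.51) and Tmem119 (0.022), and by balance for CD45 (0.036), CD49d (0.12) and CD74 (0.19). By balance, CD74 passed after turning, and CD45, CD49d, CD11b, Tmem119 and MHCII lost the call. Per 1000 tags they turned for CD45 (0.21), CD49d (0.057), CD74 (0.030) and Tmem119 (0.16) against the monocyte end and Gr-1 (-0.033) against the macrophage end. Against the monocyte end Tmem119 was 0.0083 with 20 cells, 0.00064 at a 95% hashtag share, 0.0063 in the depth window and 0.0087 without pool 1, and CD45 was 0.013 without pool 2, with a range of -0.058 to 0.013 for CD45 and -0.015 to 0.0087 for Tmem119 leaving out a pool. Against the macrophage end CD11b was 0.020 and CD45 0.077 at 2 UMIs, and CD74 0.039 in the depth window. Of the other values, 1362 of single genes and 191 of single proteins kept direction and call, 269 and 69 lost the call, and 11 of proteins gained it.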
